A study of Mus musculus with 6 samples.

Results

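Chromatin remodelers and histone methylation enzymes were examined in the embryonic mouse lateral ganglionic eminence (LGE) after conditional deletion of Zfhx3. The genes were chosen by name among autosomal protein-coding genes: Chd1 to Chd9, the Smarca to Smarce genes, Arid1 to Arid5 genes ending in a or b, Kdm1 to Kdm8, Kmt2, Kmt5, Ezh1, Ezh2, Eed and Suz12. This rule took 56 of the 29659 genes in the deposited table. It used no measured value, but was chosen with earlier results of these data known. Another 4 genes of these names were left out because they lie on a sex chromosome (Kdm5c, Kdm6a and Smarca1 on X, Kdm5d on Y), and 4 because they are not protein coding (Kdm4dl, Kdm6bos, Smarca5-ps and Smarce1-ps1). The 56 fall into 9 CHD remodelers, 3 SNF2-family ATPases outside the BAF complex, 2 BAF ATPases, 7 other BAF subunits, 8 ARID proteins, 4 core subunits of Polycomb repressive complex 2 (PRC2), 5 KMT2 and 3 KMT5 methyltransferases, and 15 lysine demethylases.

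Zfhx3 encodes a transcription factor with many zinc fingers and several homeodomains. The LGE, a germinal region of the ventral telencephalon, produces striatal projection neurons. RNA-seq was performed on LGE dissected from C57BL/6 embryos at day 16.5, with 3 libraries from Zfhx3-CKO mice (Dlx5/6-Cre; Zfhx3F/F) and 3 from control mice (Dlx5/6-Cre). The control mice therefore carried the Cre transgene as well. The Dlx5/6 driver restricts recombination to cells that have expressed it, whereas the dissected tissue also holds other cells. The comparison addresses how gene expression in the LGE differs when Zfhx3 is deleted there. Since the labels do not state that replicates were separate animals, a p-value here reflects the spread among these libraries alone, and that spread may be technical.

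ATP-dependent remodelers slide, eject or exchange nucleosomes, while histone methyltransferases and demethylases write and erase the methyl marks that distinguish active from repressed chromatin. KMT2 enzymes methylate H3K4 at promoters and enhancers, PRC2 places the repressive H3K27 methyl mark, and KDM enzymes remove these and other marks. In the developing forebrain the BAF complex exchanges subunits between paralogs as neural progenitors become neurons, and PRC2 holds differentiation genes silent until they are needed.

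Library totals were 18960574 to 20311799 counts in Zfhx3-CKO and 15938590 to 16753355 in control. These members held 1.15% to 1.17% of the counts in Zfhx3-CKO and 1.06% to 1.13% in control. Zfhx3 itself was measured at 98.8, 87.4 and 99.4 CPM (counts scaled to a common library size) in Zfhx3-CKO, against 134, 135 and 101 CPM in control, with a log2 fold change of -0.37 (SE 0.12) and, in edgeR's quasi-likelihood test, an adjusted p of 0.091. With control library 1, 2 or 3 left out that p was 0.29, 0.287 or 0.0259, at log2 fold changes of -0.30, -0.29 and -0.50. Reads from the undeleted exons are counted too, and the deleted ones are not named in the labels, so this is a limited check. Xist gave 55947 to 59631 counts in Zfhx3-CKO and 5 to 9 in control, and 4 Y-linked genes gave 5 to 8 counts in Zfhx3-CKO and 4939 to 5451 in control, so that sex and genotype cannot be told apart in any comparison here. Summed over 14 markers, striatal projection neuron RNA was 1273.8 to 1685.8 CPM in Zfhx3-CKO and 2142.6 to 2625.0 CPM in control (3 markers higher and 7 lower). Cycling cell markers summed to 2817.8 to 3791.3 CPM in Zfhx3-CKO and 2457.1 to 2633.4 CPM in control (3 of 12 higher, none lower). LGE progenitor markers summed to 2412.7 to 3257.8 CPM in Zfhx3-CKO and 2309.0 to 2755.6 CPM in control (3 of 12 higher, none lower). Cortical excitatory neuron markers summed to 207.78, 53.861 and 294.68 CPM in Zfhx3-CKO libraries 1, 2 and 3, against 55.035 to 58.373 CPM in control, and no marker of the 9 lists measured was at 0 in any library. Oligodendrocyte markers summed to 129 to 165 CPM in Zfhx3-CKO and 105 to 117 CPM in control (Olig2 higher, adjusted p 0.0395), and postmitotic neuron markers to 4287.2 to 5237.4 CPM in Zfhx3-CKO and 5203.9 to 5727.4 CPM in control. Microglia markers summed to 233 to 364 CPM in Zfhx3-CKO and 311 to 462 CPM in control. Of these 8 markers, 1 was lower (P2ry12, log2 fold change -1.80, edgeR adjusted p 0.00407) and 0 higher. The groups overlapped for the others, among them Cx3cr1 at a log2 fold change of 0.61 (edgeR adjusted p 0.0877). Of the 8 log2 fold changes, 2 were positive and 6 negative. Endothelial and pericyte markers summed to 284 to 355 CPM in Zfhx3-CKO and 281 to 292 CPM in control. Red blood cell markers summed to 2553.4 CPM in Zfhx3-CKO library 2, the one kept when Zfhx3-CKO libraries 1 and 3 are left out, and to 702 and 809 CPM in the other Zfhx3-CKO libraries, against 711 to 1080.8 CPM in control. The part of these cell types in the results below was not tested. Values given without Zfhx3-CKO libraries 1 and 3 cannot test it, since they rest on Zfhx3-CKO library 2 alone. That library held the highest Zfhx3-CKO sums of cycling, LGE progenitor and red blood cell markers. In such bulk samples fewer cells of a type and less RNA per cell cannot be told apart.

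In the Zfhx3-CKO LGE, 3 of the 55 genes with enough counts to test rose, the remodelers Chd7 and Chd2 and the demethylase Kdm2b, and 2 fell, the AT-rich-interaction factor Arid5b and the BAF subunit Smarcd1. The remaining member, the demethylase Kdm4d, was nearly absent (0.0941 ± 0.0343 FPKM in Zfhx3-CKO and 0.107 ± 0.0598 FPKM in control, SD, n = 3 each) and was not tested. The changes were small: Chd7 was 1.29-fold, Chd2 1.23-fold and Kdm2b 1.22-fold of control, Smarcd1 was at 83.6% and Arid5b at 58.2% of control. The share of members called in either direction, 9.09%, was near the 7.36% of all 16551 tested genes. By direction, 3 of 55 rose against 3.87% of all genes, and 2 of 55 fell against 3.49%. The calls are those of edgeR's quasi-likelihood test at a Benjamini-Hochberg adjusted p under 0.05 over all tested genes. These counts depended on single libraries. No member (0) was called when the fit lacked control library 1 (1.7% of all genes called), control library 2 (1.76%) or library 1 of Zfhx3-CKO (2.39%). With control library 3 left out there was 1 (Arid5b, with 4.25% of all genes called).

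The other 50 tested members did not pass. Of all 55, 44 had a log2 fold change between -0.2 and 0.2, and only Arid5b lay beyond 0.5 in size. Over all 16551 tested genes, 8774 lay between -0.2 and 0.2 and 2602 beyond 0.5. Of 13344 other autosomal protein-coding genes tested, 7582 lay between -0.2 and 0.2 and 1662 beyond 0.5. Neither set was matched to the members for level. The median SE was 0.136 over all tested genes and 0.118 over the 13344, against 0.08 over the members. The 95% interval of the log2 fold change lay within -0.5 and 0.5 for 50 members and within -0.3 and 0.3 for 26. Positive log2 fold changes were found for 36 members and negative ones for 19, with a median of 0.07, against 0.0011 over all tested genes. Of all tested genes, 8294 were positive and 8257 negative. At an unadjusted p under 0.05 there were 11 members, 8 higher and 3 lower, out of 55 where 25.6% of all genes reached it. The groups did not overlap for 14 members (31.4% of all genes), 10 with all Zfhx3-CKO libraries above (15.5% of all genes) and 4 with all below (15.9% of all genes). The members' levels were reproducible, with a median coefficient of variation of 5.88% in Zfhx3-CKO and 5.61% in control. All tested genes had 11.5% in Zfhx3-CKO and 8.67% in control, but were not matched to the members for level. Control library 3 held the lowest control value for 33 of the 55.

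**Figure D1:**
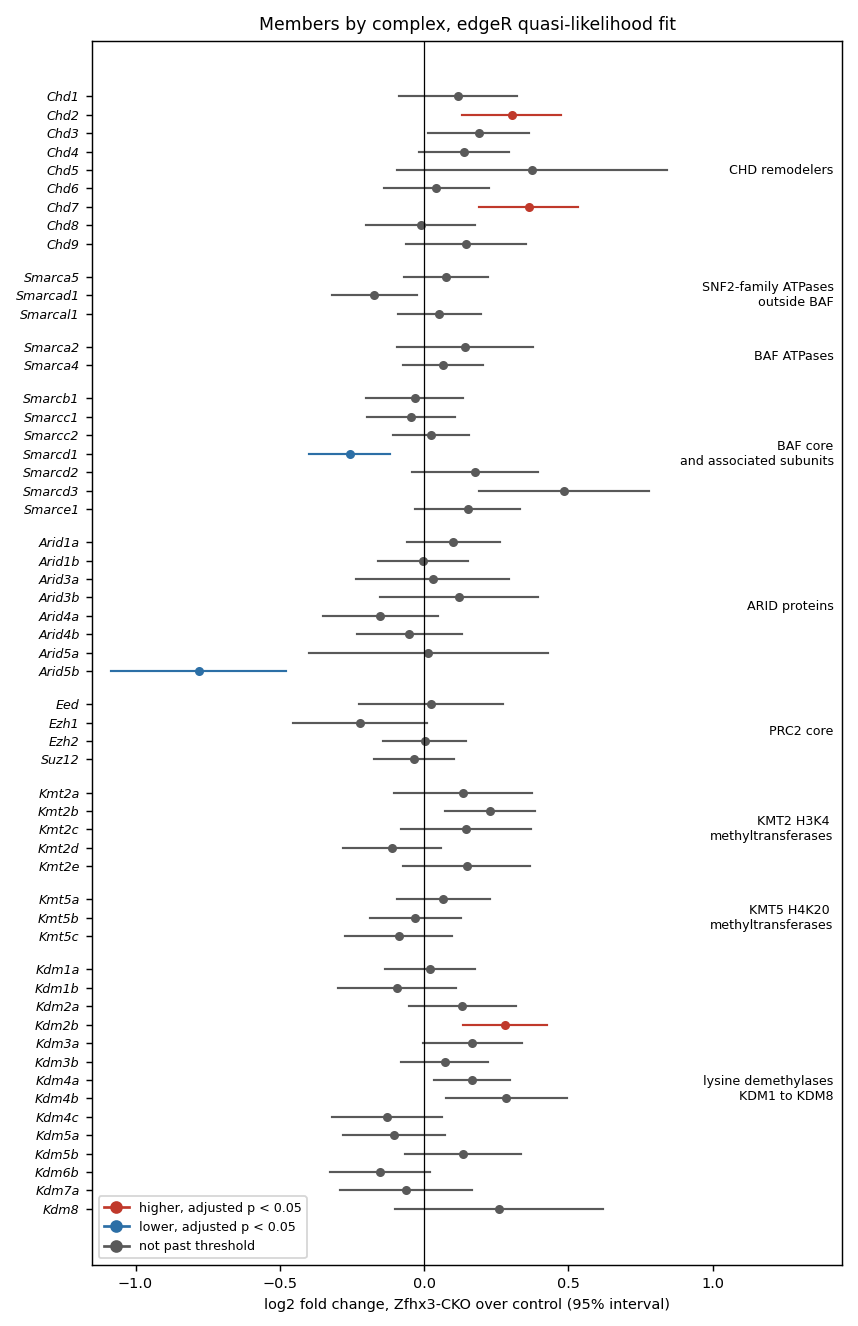
Log2 fold change of each of the 55 tested members, Zfhx3-CKO over control, with its 95% interval from edgeR's quasi-likelihood fit, grouped by complex. Red marks the 3 members that rose, blue the 2 that fell and grey the 50 not past the adjusted p of 0.05. Arid5b lies farthest from 0, at -0.78.

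**Figure D2:**
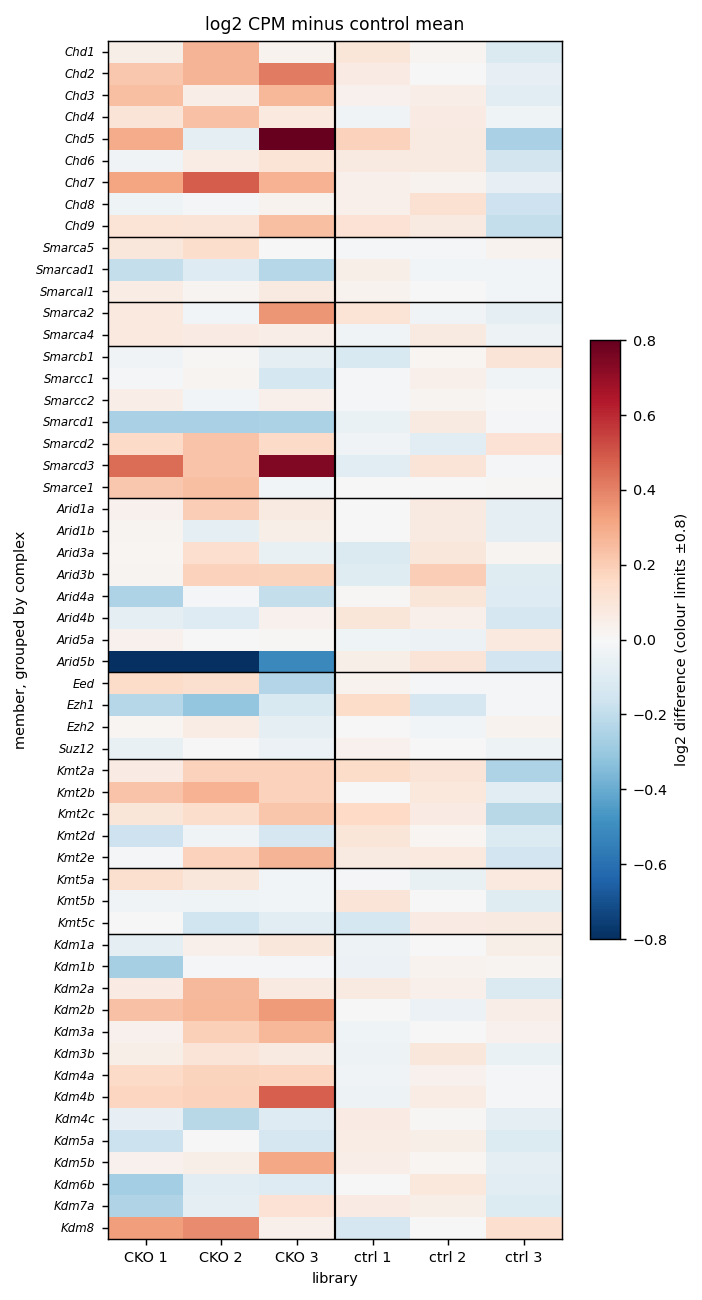
Log2 CPM of each tested member in each library minus the mean of the 3 control libraries, with Zfhx3-CKO libraries to the left of the control libraries and members grouped by complex. Colour runs from -0.8 to 0.8, and values beyond these limits take the end colours. Arid5b is low in all 3 Zfhx3-CKO libraries, and Chd5 and Smarcd3 are highest in Zfhx3-CKO library 3.

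Per gene length, a few remodelers and BAF subunits had the highest levels in both groups, while the median CHD remodeler, at 13.7 FPKM in Zfhx3-CKO and 12.3 FPKM in control, lay near the median member. Levels are given here as FPKM (fragments scaled by gene length and library size), means over 3 libraries. Chd3, a NuRD remodeler, led with 137 ± 10.8 FPKM in Zfhx3-CKO and 121 ± 5.29 FPKM in control (SD, n = 3 each). The BAF scaffold Smarcc2 followed with 119.6 ± 3.52 FPKM in Zfhx3-CKO and 118 ± 1.14 FPKM in control, and the BAF ATPase Smarca4 with 94.4 ± 1.55 FPKM in Zfhx3-CKO and 90.5 ± 3.58 FPKM in control. Smarcd1 was the fourth and Chd4 the fifth in both groups, at 73.2 ± 0.333 and 68.7 ± 4.10 FPKM in Zfhx3-CKO, against 87.8 ± 3.69 and 62.6 ± 2.12 FPKM in control. These 5 leading genes kept their order, whereas Smarce1, Arid1a, Kdm1a and Smarcc1 lay between 46.7 and 51.7 FPKM in either group and exchanged places within their spread. In all, 41 members reached 10 FPKM in Zfhx3-CKO and 39 in control. The median member was at 13.9 FPKM in Zfhx3-CKO and 13.0 FPKM in control. ARID genes were the lowest as a group, with a median of 5.27 FPKM in Zfhx3-CKO and 6.48 FPKM in control, and Arid5a, a protein known for binding messenger RNA, was near 0.246 FPKM in Zfhx3-CKO and 0.244 FPKM in control. From group to group 16 members held the same rank, and the largest shift was 10 places.

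**Figure D3:**
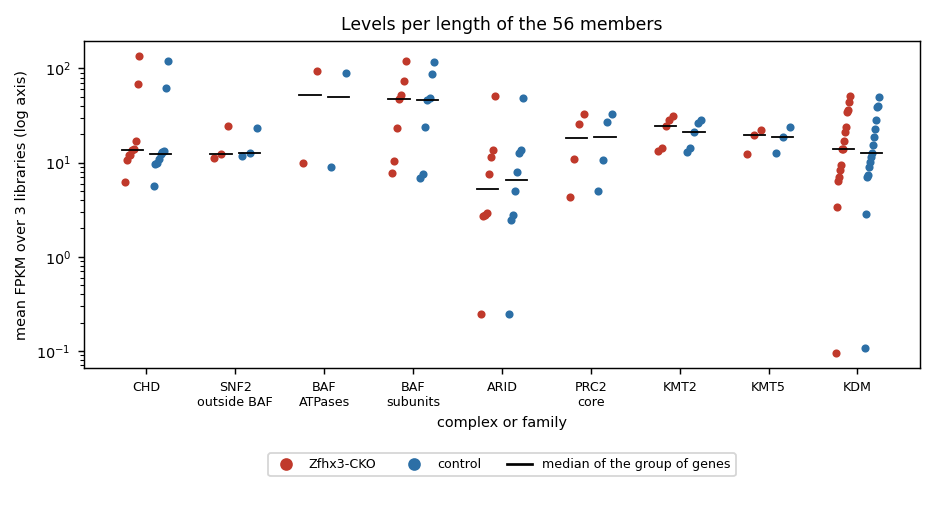
Mean FPKM over 3 libraries of each of the 56 members on a log axis, by complex, with Zfhx3-CKO to the left of control and a bar at the median of each set of genes. Chd3, at 137 FPKM in Zfhx3-CKO and 121 FPKM in control, is the highest point, and Kdm4d, near 0.1 FPKM, the lowest.

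Among the CHD remodelers, 2 of 9 rose (Chd7 and Chd2), none fell, and 8 of 9 log2 fold changes were positive with a median of 0.14. Of all 16551 tested genes, 3.87% rose, 3.49% fell and 8294 had a positive log2 fold change. When each library was left out in turn, 0 to 1 CHD remodelers rose. Chd7 (ENSMUSG00000041235, GRCm38 chromosome 4, 8690406 to 8867659, plus strand) is a remodeler of enhancers in neural and neural crest cells whose loss of function causes CHARGE syndrome in humans. Its level was 189, 213 and 184 CPM in Zfhx3-CKO, against 156, 155 and 145 CPM in control. All Zfhx3-CKO libraries lay above all control libraries, with library 2 the highest. The log2 fold change was 0.36 (SE 0.08, edgeR adjusted p 0.0272, 95% interval 0.19 to 0.53). The adjusted p of Chd7 was 0.0974, 0.102 and 0.0746 without control library 1, 2 or 3 and 0.0809 without Zfhx3-CKO library 1. Without Zfhx3-CKO libraries 1 and 3, those with more cortical marker RNA, the log2 fold change was 0.49. That fit holds 1 Zfhx3-CKO library. Zfhx3-CKO library 2 also held the largest sums of cycling and LGE progenitor markers, 3791.3 and 3257.8 CPM, and the part of these in the Chd7 result was not tested.

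Chd2, a remodeler linked to histone variant deposition and, in humans, to epilepsy (ENSMUSG00000078671, chromosome 7, 73426638 to 73541830, minus strand), was at 162, 169 and 186 CPM in Zfhx3-CKO, against 146, 139 and 133 CPM in control. The groups did not overlap, and Zfhx3-CKO library 3 was the highest. Its log2 fold change was 0.30 (SE 0.08, edgeR adjusted p 0.047). This call was close to the threshold, and leaving out any library moved the adjusted p above it, to between 0.0511 and 0.163. In the GENCODE vM21 annotation 19.3% of the exonic bases of Chd2 are shared with 1810026B05Rik and Gm44686, and the sources used here do not state that counting used strand, so that reads there may not be told apart. For the neighbour 1810026B05Rik the log2 fold change was -0.23 (adjusted p 0.206).

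The NuRD remodelers did not pass. Chd3 was at 1199.9, 1056 and 1224 CPM in Zfhx3-CKO, against 1041, 1053 and 959.8 CPM in control, or 0.19 as a log2 fold change (SE 0.08, edgeR adjusted p 0.165). All 3 Zfhx3-CKO values lay above the control values, library 2 only just. Chd4 was at 539, 589.6 and 528 CPM in Zfhx3-CKO, against 491, 524 and 490.0 CPM in control, a log2 fold change of 0.14 (adjusted p 0.244), and again the groups did not overlap. Chd5, the paralog best known from neurons, varied most of the 55 tested members among the Zfhx3-CKO libraries, with a coefficient of variation of 30.7%. It was at 153, 118 and 216 CPM in Zfhx3-CKO, against 141, 130.3 and 104 CPM in control, and the groups overlapped (log2 fold change 0.37, SE 0.21, adjusted p 0.292). Its Zfhx3-CKO libraries rank as their cortical, postmitotic, striatal projection neuron and oligodendrocyte marker sums do (library 3, then 1, then 2) and in the reverse order of their cycling and LGE progenitor sums; the part of these was not tested. Without libraries 1 and 3, which leaves 1 Zfhx3-CKO library, the log2 fold change was -0.09. Chd8, an autism-linked remodeler, was at 193, 194 and 201 CPM in Zfhx3-CKO, against 203, 215 and 176 CPM in control, a log2 fold change of -0.01 with a 95% interval of -0.20 to 0.18. Chd1, Chd6 and Chd9 had log2 fold changes of 0.12, 0.04 and 0.14 with overlapping groups. For Chd1 the deposited table gives an interval of 1689.9 kb, against 67.6 kb in GENCODE vM21, so its counts may include reads of other genes.

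**Figure D4:**
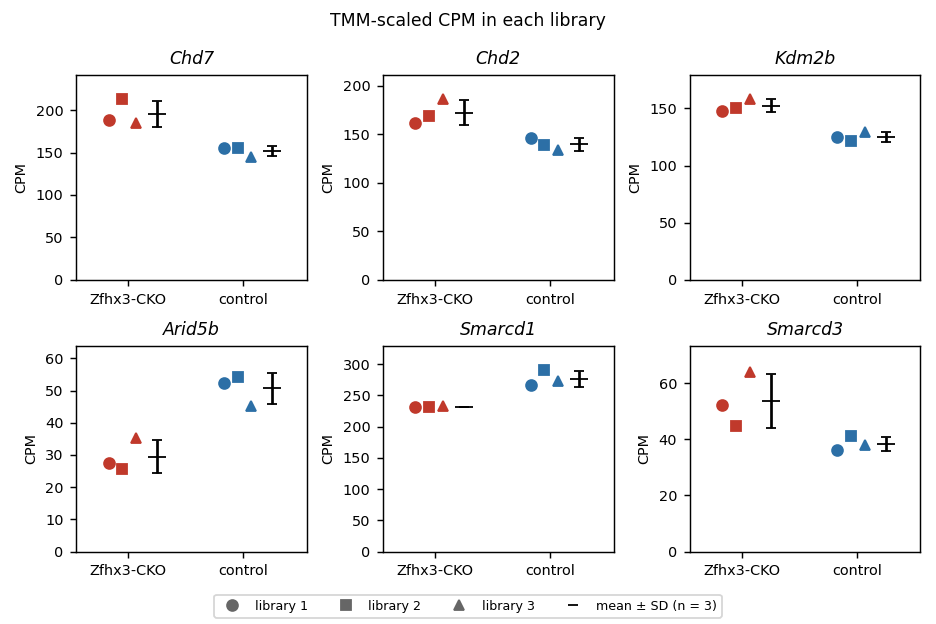
CPM of Chd7, Chd2, Kdm2b, Arid5b, Smarcd1 and Smarcd3 in each library, with Zfhx3-CKO to the left of control, marker shapes for libraries 1 to 3, and the mean ± SD of 3 libraries beside the points. The 2 groups do not overlap for any of the 6, and the Zfhx3-CKO values are higher for Chd7, Chd2, Kdm2b and Smarcd3 and lower for Arid5b and Smarcd1.

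The SNF2-family ATPases outside BAF gave no call. Smarcad1, a remodeler of heterochromatin and of DNA ends, was at 148, 157 and 144 CPM in Zfhx3-CKO, against 174, 166 and 166 CPM in control. All Zfhx3-CKO libraries were below all control libraries, and the log2 fold change was -0.17 (SE 0.06, edgeR adjusted p 0.138). Smarca5, the ISWI ATPase SNF2H, and Smarcal1, which remodels stalled replication forks, had log2 fold changes of 0.08 and 0.05 with overlapping groups.

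None of the BAF ATPases, scaffolds and core subunits passed. Smarca4 (BRG1), the main ATPase of neural progenitors, was at 619, 612 and 607 CPM in Zfhx3-CKO, against 573, 616 and 569 CPM in control, a log2 fold change of 0.07 with a 95% interval of -0.07 to 0.20. Its paralog Smarca2 (BRM) was at 136, 127 and 164 CPM in Zfhx3-CKO, against 139, 126 and 122 CPM in control, where library 3 of Zfhx3-CKO alone exceeded the control range (log2 fold change 0.14, edgeR adjusted p 0.427). The scaffold Smarcc1 (BAF155) was at 379, 389 and 347 CPM in Zfhx3-CKO, against 379.9, 393 and 375 CPM in control, and Smarcc2 (BAF170) at 679, 646 and 673 CPM in Zfhx3-CKO, against 649, 663 and 652 CPM in control. The groups overlapped for each, with log2 fold changes of -0.04 and 0.02 and 95% intervals of -0.20 to 0.11 and -0.11 to 0.16. Smarcb1, the core subunit lost in rhabdoid tumours, was at 187, 192 and 181 CPM in Zfhx3-CKO, against 176, 193 and 204 CPM in control (log2 fold change -0.03, adjusted p 0.819). Smarce1 (BAF57) was at 360.3, 367 and 306 CPM in Zfhx3-CKO, against 309.5, 309 and 312 CPM in control, so that Zfhx3-CKO libraries 1 and 2 stood above all control libraries and library 3 below them. Its log2 fold change was 0.15 (adjusted p 0.273), and 0.23 without Zfhx3-CKO library 3 (adjusted p 0.0433). The pseudogenes Smarce1-ps1 and Smarca5-ps are also listed in the table, and how reads shared with such copies were assigned has no statement in the sources used here.

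Of the 3 alternative BAF60 subunits, of which a complex takes 1 kind, Smarcd1 fell and the other two did not pass. Smarcd1 (BAF60A; ENSMUSG00000023018, chromosome 15, 99702287 to 99713995, plus strand) fell to 231, 231 and 232 CPM in Zfhx3-CKO, against 266, 291 and 274 CPM in control. Its Zfhx3-CKO libraries were almost equal to each other and below every control library. The log2 fold change was -0.26 (SE 0.06, edgeR adjusted p 0.0429), and 12.7% of the exonic bases are shared with the annotated genes Gm17349 and Gm34939. Leaving out any library except Zfhx3-CKO library 3 moved the adjusted p to between 0.0697 and 0.189. Smarcd3 (BAF60C; ENSMUSG00000028949, chromosome 5, 24590818 to 24624411, minus strand), the form best known from heart and from neurons, was at 52.1, 44.9 and 64.0 CPM in Zfhx3-CKO, against 36.1, 41.1 and 37.8 CPM in control. The groups did not overlap and Zfhx3-CKO library 3 was the highest, but the log2 fold change of 0.49 (SE 0.13) missed the threshold at an edgeR adjusted p of 0.0565; in DESeq2 the adjusted p was 0.0116. Without Zfhx3-CKO library 2 it passed (log2 fold change 0.60, edgeR adjusted p 0.0132). Without libraries 1 and 3, which leaves 1 Zfhx3-CKO library, its log2 fold change was 0.23. Its Zfhx3-CKO libraries rank in the same order as those of Chd5, with the same marker sums. Of the exonic bases of Smarcd3, 48.2% are shared with Chpf2 and Mir671, and the log2 fold change of Chpf2 was 0.11 (adjusted p 0.557). Smarcd2 (BAF60B) was at 27.1, 28.6 and 27.1 CPM in Zfhx3-CKO, against 23.9, 22.9 and 26.4 CPM in control, also without overlap (log2 fold change 0.18, adjusted p 0.283).

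Ratios between paralogs within a library do not depend on how the libraries are scaled. The log2 ratio of Smarcd3 to Smarcd1 FPKM was -2.83, -3.05 and -2.55 in Zfhx3-CKO, against -3.56, -3.51 and -3.54 in control. Smarcd1 was thus the more abundant form in every library, and the ratio was higher in all 3 Zfhx3-CKO libraries than in any control library. On counts the difference in log2 ratio was 0.73, and it ranged from 0.60 to 0.85 when each library was left out. In an exact permutation test, two-sided, p was 0.1, which is the lowest possible with 3 libraries against 3, and 0.35 after Benjamini-Hochberg adjustment over the 7 pairs compared, so no pair could pass. The other pair without overlap was Arid1b to Arid1a, with a difference of -0.10 (exact permutation p = 0.1), of which -0.02 remained without Zfhx3-CKO library 2. For Ezh1 to Ezh2 the difference was -0.22, for Smarca2 to Smarca4 0.07, for Smarcc2 to Smarcc1 0.07, for Chd3 to Chd4 0.05 and for Chd5 to Chd4 0.20, each with overlapping groups.

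**Figure D5:**
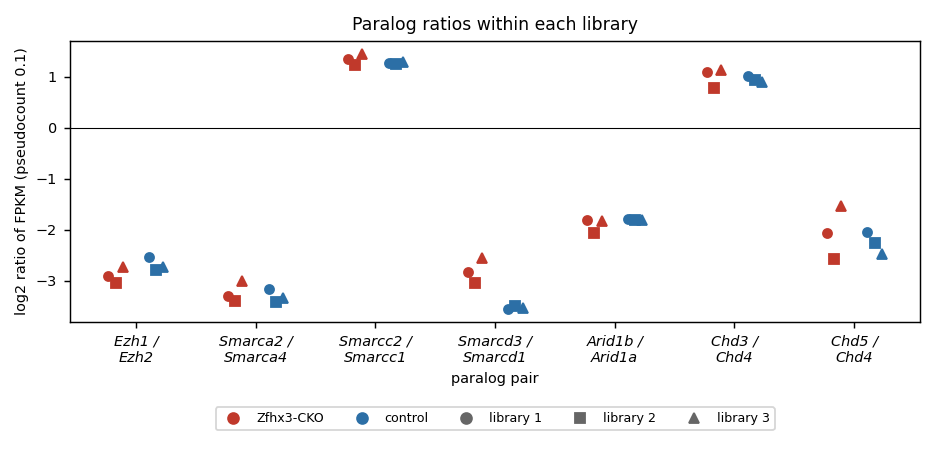
Log2 ratio of the FPKM of 2 paralogs within each library, with a pseudocount of 0.1, for 7 pairs, with Zfhx3-CKO to the left of control and marker shapes for libraries 1 to 3. A value of 0 means equal levels per length. The groups lie clearly apart for Smarcd3 to Smarcd1, at -2.81 ± 0.25 in Zfhx3-CKO and -3.54 ± 0.03 in control (SD, n = 3 each).

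Of the 8 ARID proteins, which share an AT-rich-interaction domain but belong to different complexes, 1 fell and none rose. Over all tested genes, 3.49% fell and 3.87% rose. Arid5b (ENSMUSG00000019947, chromosome 10, 68092520 to 68278740, minus strand), a DNA-binding partner of the H3K9 demethylase Phf2, had the largest change in size of all members. It fell to 27.4, 25.7 and 35.4 CPM in Zfhx3-CKO, against 52.3, 54.4 and 45.3 CPM in control. Library 3 was the highest in Zfhx3-CKO and the lowest in control, and the groups did not overlap. Per length the level was 2.92 ± 0.497 FPKM in Zfhx3-CKO and 5.03 ± 0.441 FPKM in control (SD, n = 3 each). The log2 fold change was -0.78 (SE 0.13, edgeR adjusted p 0.0124, 95% interval -1.08 to -0.48). The adjusted p was 0.0631 with library 1 of Zfhx3-CKO left out, and 0.0807 and 0.0804 with control libraries 1 and 2 left out in turn, while the log2 fold change stayed between -0.93 and -0.69 whichever library was left out. Without Zfhx3-CKO libraries 1 and 3, which leaves 1 Zfhx3-CKO library, the log2 fold change was -0.98. The partner Phf2 was at a log2 fold change of 0.12 (adjusted p 0.324).

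The BAF subunits among the ARID proteins did not pass. Arid1a was at 568, 634 and 581 CPM in Zfhx3-CKO, against 552, 583 and 527 CPM in control (log2 fold change 0.10, edgeR adjusted p 0.405). Arid1b, which replaces Arid1a in part of the complexes and is mutated in Coffin-Siris syndrome in humans, was at 176, 165 and 179 CPM in Zfhx3-CKO, against 174, 182 and 164 CPM in control (log2 fold change -0.0024, 95% interval -0.16 to 0.15). The groups overlapped for Arid1a and for Arid1b alike. Arid4a, a subunit of the Sin3 deacetylase complex, was at 59.6, 70.0 and 61.9 CPM in Zfhx3-CKO, against 71.3, 75.8 and 65.8 CPM in control (log2 fold change -0.15, adjusted p 0.313). Its relative Arid4b and the transcription factors Arid3a and Arid3b had log2 fold changes of -0.05, 0.03 and 0.12.

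The sequence before the start site is shown for the 2 members that fell, the called members with bases left outside the gene intervals, from RefSeq on GRCm38.p6, 5′ to 3′ on the strand of the gene, with CG dinucleotides in capitals. The Arid5b stretch, chr10:68278741-68278976 on the minus strand, holds 4 CG in 236 bases at 42.4% G and C. The Smarcd1 stretch, chr15:99702037-99702128 on the plus strand, holds 9 CG in 92 bases at 63.0% G and C. It stops where the gene begins in GENCODE vM21, at 99702129, and leaves out the bases next to the start at 99702287 given above. The whole window of 250 bases before that start holds 29 CG at 71.2% G and C.
Arid5b: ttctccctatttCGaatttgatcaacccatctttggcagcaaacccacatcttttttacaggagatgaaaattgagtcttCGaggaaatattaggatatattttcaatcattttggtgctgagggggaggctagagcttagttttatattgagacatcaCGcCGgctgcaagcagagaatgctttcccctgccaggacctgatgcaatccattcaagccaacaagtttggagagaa
Smarcd1: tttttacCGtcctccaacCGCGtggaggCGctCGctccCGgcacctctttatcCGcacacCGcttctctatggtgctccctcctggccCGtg
RefSeq promoters were matched for 42 of the 56 members, not including Chd7 and Chd2. In the 250 bases before the start site, members had a median of 61.8% G and C, against 52.0% for 27025 promoters. Of the members 90.5% were above 50%, against 56.5%. The sets are not matched, here or for the motif below. The 27025 were not limited to autosomal protein-coding genes and took the promoter lowest in coordinate for each symbol. Members took the promoter nearest the gene start. Arid5b, at 42.0%, was the second lowest of the 42. The letters ATTA or TAAT, the same motif on either strand and the core that many homeodomain proteins bind, were present in 14 of the 42 (33.3%), against 55.4% of all promoters of this length; a match is a description and not a binding site. They were found once in the Arid5b window and not in that of Smarcd1.

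None of the PRC2 core subunits passed. Ezh2, the main H3K27 methyltransferase of progenitors, was at 219, 227 and 206 CPM in Zfhx3-CKO, against 216, 213 and 222 CPM in control, a log2 fold change of 0.0022 with a 95% interval of -0.14 to 0.15. Ezh1, its paralog in postmitotic cells, was at 31.7, 29.8 and 34.0 CPM in Zfhx3-CKO, against 41.1, 33.7 and 36.7 CPM in control (log2 fold change -0.22, SE 0.10, edgeR adjusted p 0.213). Zfhx3-CKO library 3 and control library 2 overlapped. Eed, which reads the H3K27 mark, was at 45.4, 44.8 and 34.9 CPM in Zfhx3-CKO, against 41.8, 40.6 and 40.7 CPM in control (log2 fold change 0.02). Suz12, the scaffold, was at 127, 132 and 128 CPM in Zfhx3-CKO, against 135, 132 and 128 CPM in control (log2 fold change -0.03). For Eed the interval of -0.23 to 0.27 and for Suz12 that of -0.17 to 0.10 bound the difference that these libraries allow.

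None of the KMT2 genes passed, although 4 of 5 log2 fold changes were positive with a median of 0.14. Of all 16551 tested genes, 8294 were positive. As log2 CPM minus the control mean, the median KMT2 gene was at 0.09, 0.08 and -0.15 in control libraries 1, 2 and 3. In Zfhx3-CKO libraries 1, 2 and 3 it was at 0.06, 0.18 and 0.19. Kmt2b, which methylates H3K4 at CpG-rich promoters, was at 236, 245 and 229.7 CPM in Zfhx3-CKO, against 201, 214 and 191 CPM in control. The groups did not overlap, and the log2 fold change was 0.23 (SE 0.07, edgeR adjusted p 0.0771). Kmt2a (MLL1) was at 452, 491 and 491 CPM in Zfhx3-CKO, against 478, 466 and 364 CPM in control, where control library 3 stood apart from the other libraries (log2 fold change 0.13, adjusted p 0.46). Kmt2d, an enhancer H3K4 methyltransferase mutated in Kabuki syndrome in humans, was at 253, 278 and 259 CPM in Zfhx3-CKO, against 303, 287 and 263 CPM in control (log2 fold change -0.11, adjusted p 0.389). Its paralog Kmt2c and Kmt2e, a family member known as a reader of H3K4 methylation without clear enzyme activity, had log2 fold changes of 0.14 and 0.15 with overlapping groups. The H4K20 methyltransferases Kmt5a, Kmt5b and Kmt5c were at 0.07, -0.03 and -0.09, each with an interval within -0.3 and 0.3.

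Of 14 lysine demethylases tested, 1 rose and none fell, with a median log2 fold change of 0.10. Over all tested genes, 3.87% rose and 3.49% fell, with a median of 0.0011. Kdm2b (ENSMUSG00000029475, chromosome 5, 122870665 to 122989823, minus strand), which removes H3K36 methylation and brings a variant form of Polycomb repressive complex 1 (PRC1) to unmethylated CpG islands, was at 147, 151 and 159 CPM in Zfhx3-CKO, against 125, 121 and 129.6 CPM in control. All Zfhx3-CKO libraries lay above all control libraries. The log2 fold change was 0.28 (SE 0.06, edgeR adjusted p 0.0358, 95% interval 0.14 to 0.43). The adjusted p was 0.139, 0.155 and 0.0604 without control library 1, 2 or 3 and 0.0928 without Zfhx3-CKO library 1, and the log2 fold change then stayed between 0.27 and 0.31. For its relative Kdm2a the log2 fold change was 0.13 (adjusted p 0.342). In GENCODE vM21, 8.74% of the exonic bases of Kdm2b are shared with A930024E05Rik, Gm44574 and Rnf34. For Rnf34 the log2 fold change was -0.05 (edgeR adjusted p 0.768).

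The H3K9 and H3K36 demethylases Kdm4a and Kdm4b were above control in every Zfhx3-CKO library without passing. Kdm4a was at 252, 256 and 255 CPM in Zfhx3-CKO, against 223, 233 and 225 CPM in control (log2 fold change 0.17, SE 0.06, edgeR adjusted p 0.119). Kdm4b was at 158, 159 and 195 CPM in Zfhx3-CKO, against 136, 146 and 139 CPM in control, with library 3 the highest (log2 fold change 0.28, SE 0.09, adjusted p 0.0977). Their paralog Kdm4c had a log2 fold change of -0.13. Kdm6b, which removes H3K27 methylation, was at 232, 264 and 260.1 CPM in Zfhx3-CKO, against 279, 297 and 265 CPM in control, with the groups only just apart (log2 fold change -0.15, adjusted p 0.251). Kdm1a (LSD1), the demethylase of CoREST complexes, was at 246, 266 and 276 CPM in Zfhx3-CKO, against 251, 258 and 268 CPM in control, with a 95% interval of -0.14 to 0.17. Kdm5b, an H3K4 demethylase, was at 264, 266 and 319 CPM in Zfhx3-CKO, against 267, 261 and 245 CPM in control, where only library 3 of Zfhx3-CKO lay above the control range (log2 fold change 0.13, adjusted p 0.37). The H3K9 demethylase Kdm3a, at 159, 178 and 187 CPM in Zfhx3-CKO, against 151, 156 and 159 CPM in control, touched the control range with library 1 (log2 fold change 0.17, adjusted p 0.206). Kdm8, a Jumonji-family oxygenase, was at 8.62, 8.90 and 7.02 CPM in Zfhx3-CKO, against 6.21, 6.81 and 7.48 CPM in control, a low level with a wide interval of -0.10 to 0.62. The other tested demethylases, Kdm1b, Kdm3b, Kdm5a and Kdm7a, had log2 fold changes between -0.10 and 0.07.

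Partners, meaning other subunits of these complexes and other remodelers, methyltransferases and demethylases, were described from lists of 102 genes. Of these, 2 rose (3.87% of all genes) and 1 fell (3.49% of all genes). Dpf3, a BAF subunit associated with neurons that reads histone acetylation, was at 9.41, 6.88 and 8.61 CPM in Zfhx3-CKO, against 4.66, 5.80 and 4.07 CPM in control (log2 fold change 0.78, SE 0.19, edgeR adjusted p 0.0477). Ehmt2 (G9a), an H3K9 methyltransferase, came from the list of other methyltransferases. It was at 403, 412 and 426 CPM in Zfhx3-CKO, against 282, 319 and 339 CPM in control (log2 fold change 0.40, edgeR adjusted p 0.022). Gatad2b, a NuRD subunit that joins Chd4-type remodelers to the deacetylase core, was at 142, 160.4 and 150.0 CPM in Zfhx3-CKO, against 200.1, 191 and 188 CPM in control (log2 fold change -0.36, adjusted p 0.0211). None of the 3 had overlapping groups. None of the 102 passed when either control library 1 or 2, or library 1 of Zfhx3-CKO, was left out, and 10 were higher when library 3 of Zfhx3-CKO was (6.47% of all genes). Dpf3 also missed the threshold without control library 3 (adjusted p 0.127) and without Zfhx3-CKO library 3 (adjusted p 0.0522). The other subunits that BAF exchanges as neurons form did not pass: log2 fold changes were 0.24 for Actl6a, -0.02 for Phf10, -0.11 for Dpf2 and 0.04 for Ss18, the forms of progenitors, and -0.01 for Actl6b, 0.07 for Dpf1 and -0.06 for Ss18l1, the forms of neurons. Of 9 ISWI partners of Smarca5, 8 had positive log2 fold changes and none passed; of 18 PRC1 subunits, some of them in the form that Kdm2b joins, 9 were positive and none passed; and none of 7 accessory subunits of PRC2 or 11 subunits of the KMT2 complexes passed.

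Of the 4 relatives on the sex chromosomes, 3 differed between the groups, which also differ in sex. Kdm5c, an H3K4 demethylase that is expressed from the inactive X chromosome, was at 249 ± 8.98 CPM in Zfhx3-CKO and 155 ± 12.6 CPM in control (SD, n = 3 each; log2 fold change 0.68, edgeR adjusted p 0.00233). Kdm6a, an H3K27 demethylase that also escapes X inactivation, was at 92.3 ± 6.68 CPM in Zfhx3-CKO and 59.1 ± 4.31 CPM in control (log2 fold change 0.64, adjusted p 0.00439). The Y-linked Kdm5d was at 0.134 ± 0.0999 CPM in Zfhx3-CKO and 82.5 ± 5.13 CPM in control, and for the X-linked ISWI ATPase Smarca1 the log2 fold change was -0.12 (adjusted p 0.676).

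In the authors' deposited table, 6 members have an adjusted p under 0.05, the 5 named above and Smarcd3 (0.0105), and the table marks 0 of the 56 as significant. For Arid5b the authors' deposited table has a log2 fold change of -0.69 at an adjusted p of 9.91E-06.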

How the data were processed

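The files were analysed from the point where the authors had aligned and counted the reads. The TruSeq RNA kit was used on 1 ug of RNA, per the labels' protocols. Tools in the submitters' processing notes are HISAT2, StringTie, edgeR and bcl2fastq (version 2.17.1.14), with mm10 and GRCm38.p4 as builds; the notes as used here tie none of them to a step. The deposited counts are whole numbers per gene with no normalisation, per the file headers. FPKM values in the deposited tables carry the authors' scaling by gene length and library size, as the unit's name in the headers says. The same deposited table holds p-values and log2 fold changes that the authors computed, with no test named in its headers.

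Columns of the full table were tied to samples by group and number in their names. In a shorter table with the sample titles, counts and FPKM were identical for all 3726 genes. Library pairs within a group differed by more than sampling noise (chi-square per gene 3.33 to 29.5), so each was kept as a replicate.

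Counts were fitted with edgeR 4.0.16 in R 4.3.3 (quasi-likelihood test, TMM factors 0.992 to 1.01, filterByExpr with a minimum count of 10, group only), with Benjamini-Hochberg adjustment over 16551 genes at 0.05. The SE comes from the F statistic. Members and gene lists were chosen with earlier results of these data known. Members described in every library were those past the threshold, up to 20 with the smallest p, and 24 fixed by name. Of the partner lists, 2 symbols were matched under older names. Paralog ratios used log2 counts with a prior of 0.5. Exon overlap is from GENCODE vM21, and promoters are from RefSeq (GRCm38.p6). The fit was tested on simulated data.

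Alternatives were a replicate block, RLE factors, library totals only, no filter, a filter of 5 CPM in 3 libraries, each library left out, Zfhx3-CKO libraries 1 and 3 left out, no X and Y genes, DESeq2 1.42.0, and limma 3.58.1 on log2(FPKM + 1).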

Additional observations from a re-analysis of the deposited data

How the results depend on the processing

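RLE factors, library totals, the strict filter and removal of X and Y genes kept all 5 member calls; the 5 called members kept their direction under all 15 alternatives, with adjusted p between 1.18e-05 and 0.0807 for Arid5b, 0.00185 and 0.102 for Chd7, 0.0106 and 0.155 for Kdm2b, 0.0203 and 0.189 for Smarcd1, and 0.0146 and 0.163 for Chd2. Replicate numbers were not taken as pairs (correlations of same-numbered deviations -0.03, -0.08 and -0.25). With the replicate block, 0 members were higher and 0 lower, with 8 at an unadjusted p under 0.05, so that CHD remodelers and lysine demethylases had 0 higher, ARID proteins and BAF subunits 0 lower, and partner genes 0 higher and 0 lower; all genes gave 176 higher and 136 lower. With no low-count filter, 1 member was lower, 1 BAF subunit (Smarcd3) was higher and 0 lower, and 6 partners were higher. That fit tested 29659 genes, of which 1075 (3.62%) were higher. DESeq2 added Smarcd3, for 1 BAF subunit higher, with 5 partners higher and 1021 (3.44%) of the 29651 genes it gave a p-value. In limma-trend on FPKM 1 member was higher (1 CHD remodeler, 0 demethylases), with 1 partner higher, against 3.33% of all genes. Without X and Y genes 1 partner was higher, against 3.81% of all genes. Without Zfhx3-CKO libraries 1 and 3, where the lone Zfhx3-CKO library is assumed to vary like the control libraries, 1 member was higher and 1 lower (1 CHD remodeler and 0 demethylases higher, 0 BAF subunits lower), and 12 partners were higher and 0 lower. In that fit genes outside the member and partner lists also passed in both directions. Its counts rest on Zfhx3-CKO library 2 alone, so no conclusion about members or partners is drawn from them. When each library was left out in turn, 0 to 3 members were higher and 0 to 2 lower, with 0 to 1 for CHD remodelers, demethylases and BAF subunits higher and for ARID proteins and BAF subunits lower. Over the same fits 0 to 10 partners were higher and 0 to 1 lower, and 156 to 1082 of all genes were higher and 131 to 1014 lower. The cause of these shifts was not tested. Differences in paralog ratio that changed sign when a library was left out ranged from -0.043 to 0.148 for Smarca2 to Smarca4, -0.022 to 0.164 for Chd3 to Chd4 and -0.059 to 0.458 for Chd5 to Chd4, each lowest without Zfhx3-CKO library 3. Some log2 fold changes of members not called changed sign. Arid1b was at 0.0026 with RLE factors, 0.0053 with no filter, 0.0055 in DESeq2 and -0.040 to 0.042 leaving out a library. Ezh2 was at -0.0023 with library totals, -0.0022 without X and Y genes, -0.0031 in limma-trend and -0.025 to 0.039 leaving out a library. Without Zfhx3-CKO libraries 1 and 3, Chd5 was at -0.088, Smarca2 at -0.023, Smarcb1 at 0.0097, Smarcc1 at 0.023, Smarcc2 at -0.019 and Suz12 at 0.0043. Leaving out a library gave -0.091 to 0.059 for Chd8, -0.038 to 0.138 for Eed, -0.017 to 0.069 for Kdm1a, -0.085 to 0.018 for Smarcb1 and -0.075 to 0.0045 for Smarcc1. With 3 libraries a group, the median SE of the log2 fold change was 0.08 over the 55 members tested; the smallest difference called was -0.26 (Smarcd1), and 0.17 for Kdm4a and 0.23 for Kmt2b were not called.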
